A study of Mus musculus with 6 samples.

Results

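The genes described here carry glucose into the heart cell, break it down to pyruvate and lactate, and store or release it as glycogen. They are 33 genes chosen by name for their place in the pathway. A member was measured by the probe sets that the platform annotation gives exactly 1 gene symbol, that symbol being the member, and its brightest probe set by mean over the 6 hearts stands for it. Of the 33 members, 30 had such a probe set, among 18193 genes on the array that did, and 28 were tested, among 11486 genes that passed the filter on low values. Slc16a3 lay below the filter, Gapdh was measured by control probe sets alone, and Gpi1, Pfkfb1 and Eno1 were not analysed here. The study compared hearts of Cav1 knockout mice (Cav1KO, n = 3) with hearts of wild-type mice (WT, n = 3) on Affymetrix expression arrays, 1 array per sample. The replicate numbers of the WT hearts are those of their titles, and those of the Cav1KO hearts only follow the order of deposition. All 6 samples are heart tissue of male mice aged 5 to 6 months that had been fasted for 6 hours, so what the groups share is sex, age and the fast, and what sets them apart in the labels is Cav1, the gene of the caveola coat protein caveolin-1. The labels give neither the strain, nor the deleted part of the gene, nor whether any cell type kept it. They do not state that the 6 hearts are those of 6 mice, so the spread between samples of a group may be technical. A limma p-value here sets the group difference against that spread, evened out with the spread of other probe sets. In whole heart tissue, fewer cells of a type and less RNA per cell cannot be told apart.

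The heart takes up glucose through GLUT1, which sits mostly at the cell surface, and through GLUT4, which insulin and contraction bring to the surface from stores inside the muscle cell. Hexokinase traps the sugar as glucose 6-phosphate, which either enters glycolysis, with phosphofructokinase as the committed step, or is built into glycogen by way of UDP-glucose. A working heart burns mainly fatty acids and leans more on glucose when oxygen is short, and hypoxia-inducible factor, a transcription factor that low oxygen stabilises, is known to raise many genes of glycolysis through sites with the core letters ACGTG.

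The promoters of Slc2a1, Ldha and Pgk1 are shown because their genes are textbook targets of hypoxia-inducible factor, and their levels in the knockout hearts are given further on. Each is the 250 bases upstream of a RefSeq start in build GRCm38.p6, read 5′ to 3′ on the gene's strand, with ACGTG on either strand in capitals. Where ACGTG lies inside CACGTG, which reads the same on both strands, all 6 letters are in capitals. The stretches lie at chr4:119108495-119108744 (Slc2a1), chr7:46845554-46845803 (Ldha) and chrX:106186850-106187099 (Pgk1), all on the plus strand.
Slc2a1: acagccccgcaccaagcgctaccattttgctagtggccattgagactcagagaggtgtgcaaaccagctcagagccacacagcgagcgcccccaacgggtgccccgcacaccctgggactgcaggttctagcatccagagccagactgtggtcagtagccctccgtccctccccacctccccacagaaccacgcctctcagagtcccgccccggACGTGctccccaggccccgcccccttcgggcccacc
Ldha: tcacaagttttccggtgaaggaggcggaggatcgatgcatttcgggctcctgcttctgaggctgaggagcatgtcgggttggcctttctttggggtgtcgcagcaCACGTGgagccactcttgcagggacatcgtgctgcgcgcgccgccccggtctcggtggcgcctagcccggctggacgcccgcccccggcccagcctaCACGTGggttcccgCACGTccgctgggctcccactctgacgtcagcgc
Pgk1: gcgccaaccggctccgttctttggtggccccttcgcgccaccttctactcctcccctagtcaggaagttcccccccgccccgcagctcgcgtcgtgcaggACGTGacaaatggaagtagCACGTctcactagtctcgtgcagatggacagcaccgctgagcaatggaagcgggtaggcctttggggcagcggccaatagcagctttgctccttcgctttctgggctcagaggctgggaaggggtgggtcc
Slc2a1 has 1 such stretch, Pgk1 has 2 and Ldha has 3 at the start shown, while the other of its 2 starts has 0. Of the 32 members with an upstream sequence, 14 had ACGTG upstream of at least 1 start, or 43.8%, against 18.5% of all 27025 genes with a sequence. The letters are a description of these windows and not a mapped binding site.

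Cav1 itself checks the genotypes. It stood at 7.07, 6.87 and 6.87 in the Cav1KO hearts and at 11.92, 11.91 and 12.05 in the WT hearts, on the scale of log2(intensity + 16) used for all values here. The difference, Cav1KO minus WT, was -5.02 (SE 0.067, limma, Benjamini-Hochberg adjusted p = 1.66e-09). Across the array 716 of the 22519 probe sets tested passed an adjusted p of 0.05, which is 3.18%, with 531 higher (2.36%) and 185 lower (0.822%) in Cav1KO hearts. That makes 74.2% of the calls higher, against 90.9% with the intensities as deposited and 93.3% with median centring. The 9 cardiomyocyte markers summed to intensities of 146300 to 148500 in Cav1KO hearts and 146100 to 149900 in WT hearts, and 0 of them passed. That sum rests on markers such as Myl2, Actc1 and Myh6 near the top of the arrays' range, where the highest intensities were 21908 to 22630, so it may not show a change. The dimmest of them, Ryr2, differed by -0.047 (limma adjusted p = 0.631). Of the markers of other cell types, 4 of 8 endothelial, 4 of 8 macrophage and leukocyte and 2 of 7 fibroblast genes rose, and 0 of 5 smooth muscle and 0 of 2 skeletal muscle genes passed.

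None of the 28 tested members passed the threshold, higher or lower, while 4.04% of the 11486 genes tested did (limma, Benjamini-Hochberg adjusted p of 0.05). The smallest adjusted p among the members was 0.0617, for Ldhb. At an unadjusted p of 0.05, 10 of the 28 members passed, 3 higher and 7 lower, where 22.1% of all genes did, 11.1% higher and 11% lower. Groups did not overlap for 8 members, 3 higher (Pfkp, Ldha and Ugp2) and 5 lower (Slc2a4, Pfkm, Ldhb, Gys1 and Pygm). Among all genes tested 28.7% did not overlap, 13.5% higher and 15.2% lower. The share of the members, 8 of 28, was close to this, so a lack of overlap, given for single members below, does not set them apart. The median difference over the members was -0.037, beside -0.014 over all genes tested. All but 7 members had a negative difference, 21 of 28, but this split depends on the scaling and was 14 to 14 with median centring. Measured against the median of all genes under the same scaling, 20 of 28 members lay below it as quantile normalised and 20 as deposited, which median centring cannot alter. The count was 16 with array weights, 17 without Cav1KO replicate 1 and 17 without WT replicate 2.

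For 22 of the 28 members the 95% interval of the difference lay inside 1.2-fold in either direction, as it did for 56.4% of all genes tested. Inside 1.1-fold lay the intervals of 9 of the 28 members, against 6.43% of all genes. The 6 members whose interval reached past 1.2-fold were Slc2a1, Pfkp, Pfkfb2, Bpgm, Ugp2 and Phkg1, and of these only Phkg1 reached past 1.5-fold. The median SE of the difference was 0.043 for the members and 0.069 for all genes tested, on the log2 scale. Means of the tested members in WT hearts ran from 7.29 (Phkg1) to 13.31 (Aldoa), while tested probe sets reached down to 5.92. The limma fit let the spread vary with brightness, and the members were not compared with genes equally bright. These interval widths are therefore no sign that the members are steadier than other genes.

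**Figure D1:**
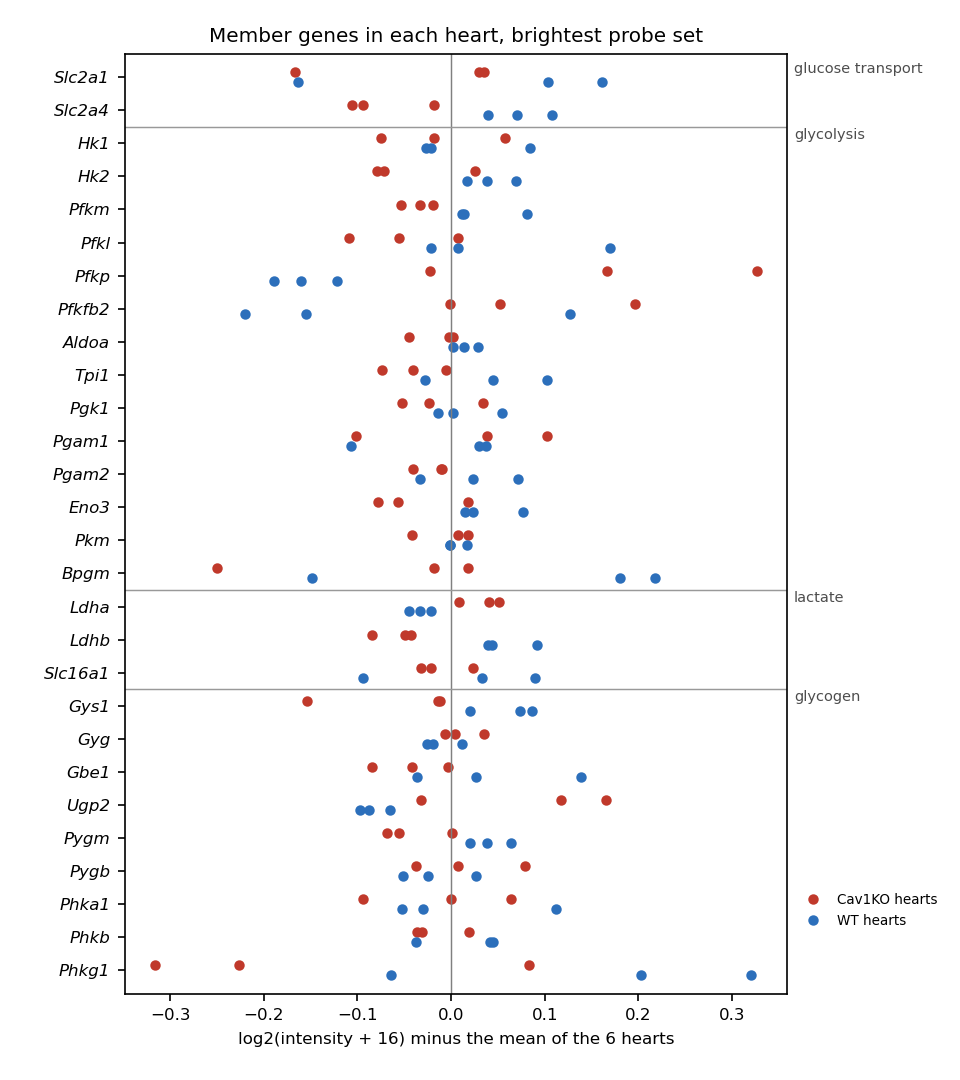
Each row is 1 of the 28 tested members at its brightest probe set, ordered by step; the x axis is log2(intensity + 16) minus the mean of the 6 hearts, with the 3 Cav1KO hearts in red above the 3 WT hearts in blue. The groups overlap in 20 of the 28 rows, and among all genes tested 28.7% did not overlap, a share close to that of the members. For Pfkp, Ldha and Ugp2 all 3 Cav1KO hearts lie right of the WT hearts. For Slc2a4, Pfkm, Ldhb, Gys1 and Pygm they lie left of them.

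**Figure D2:**
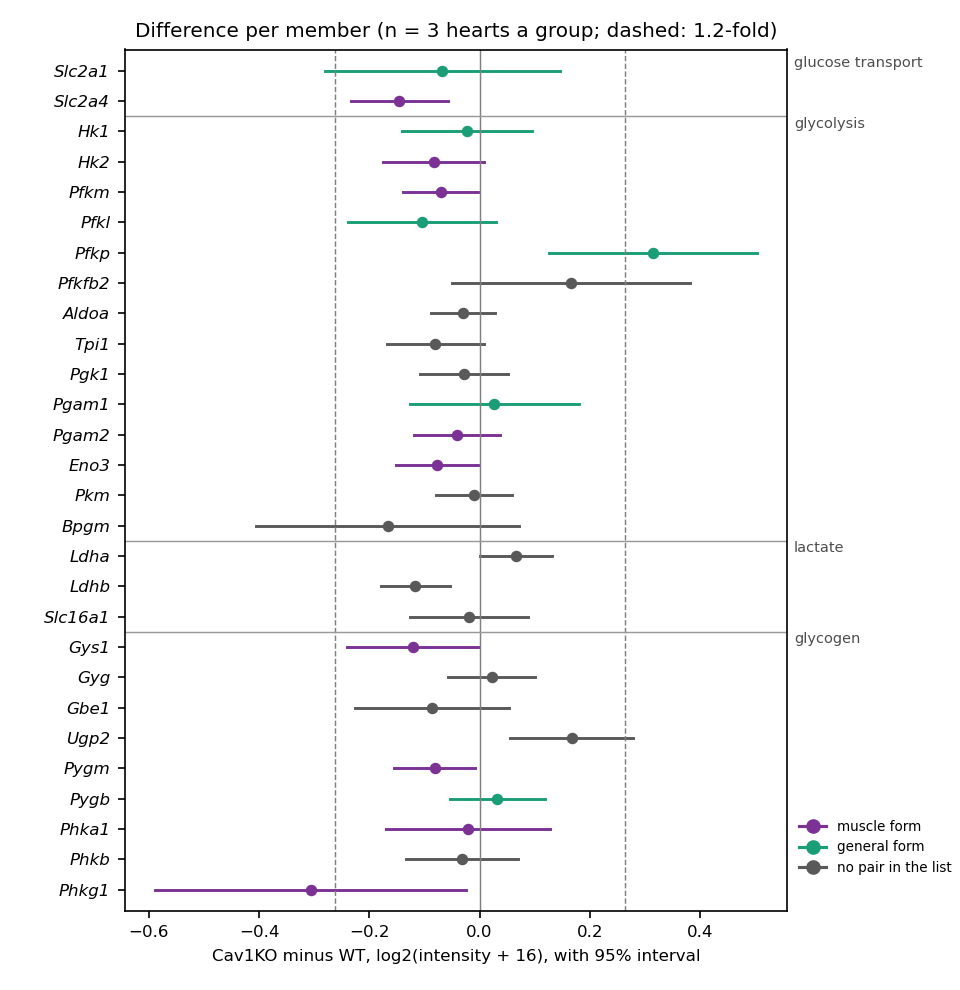
Points are the differences Cav1KO minus WT on the log2 scale and lines their 95% intervals from limma (n = 3 hearts a group), coloured by muscle form, general form or no pair in the list; dashed lines mark 1.2-fold. The intervals of Slc2a1, Pfkp, Pfkfb2, Bpgm, Ugp2 and Phkg1 reach past a dashed line and those of the other 22 do not.

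Of the glucose carriers, neither passed the test. Slc2a4, the gene of the insulin-responsive GLUT4, had 11.17, 11.18 and 11.25 in Cav1KO hearts and 11.31, 11.34 and 11.38 in WT hearts. All Cav1KO hearts lay under all WT hearts, by -0.15 on average (95% interval -0.23 to -0.057, limma adjusted p = 0.0873). The second probe set of Slc2a4 had a difference of -0.11 (adjusted p = 0.20). Adipocytes hold GLUT4 too, and the fat marker Adipoq, chosen after its values were seen, stood at 6.34, 6.12 and 8.12 in Cav1KO hearts and at 7.91, 8.63 and 9.70 in WT hearts. The highest Slc2a4 value of each group thus came from the heart with the highest Adipoq value of that group. The other tested adipocyte markers were highest in the same 2 hearts for Pck1, and for Retn in that heart among the Cav1KO hearts but not among the WT hearts. Of 7 adipocyte markers 5 had a probe set and 3 were tested, with 0 called, and their summed intensity was 213 to 501 in Cav1KO hearts and 466 to 1386 in WT hearts. Their part in the Slc2a4 values was not tested. Slc2a1, the gene of GLUT1, had 8.16, 8.36 and 8.36 in Cav1KO hearts against 8.16, 8.49 and 8.43 in WT hearts. The groups overlapped, with replicate 1 lowest in both, and the difference was -0.068 (95% interval -0.28 to 0.15, limma adjusted p = 0.708). Its other 2 probe sets stood at 0.054 and -0.19, neither past the threshold.

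At the trapping step, both hexokinase genes overlapped between the groups. Hk2, the insulin-regulated form of muscle, had 11.18, 11.19 and 11.29 in Cav1KO hearts against 11.28, 11.30 and 11.33 in WT hearts. Cav1KO replicate 3 lay among the WT hearts, and the difference of -0.083 did not pass (limma adjusted p = 0.283). Hk1, the form of most tissues, had a difference of -0.023 (95% interval -0.14 to 0.095).

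Phosphofructokinase has 3 genes, named for muscle, liver and platelet, whose products mix in the working enzyme. Pfkm, the muscle form, had 12.70, 12.72 and 12.74 in Cav1KO hearts against 12.84, 12.77 and 12.77 in WT hearts. These groups did not overlap, yet the difference was only -0.071 (95% interval -0.14 to -0.0028, limma adjusted p = 0.234). Pfkl, the liver form, had a difference of -0.10 (adjusted p = 0.35). Pfkp, the platelet form, had 8.88, 8.72 and 8.53 in Cav1KO hearts against 8.37, 8.43 and 8.39 in WT hearts. Every Cav1KO heart lay above every WT heart, and the Cav1KO hearts spread more, with an SD of 0.17 against 0.034 in WT hearts. The difference of 0.31 was the largest positive one among the brightest probe sets of the tested members and did not pass (95% interval 0.13 to 0.50, limma adjusted p = 0.085). The second tested probe set of Pfkp stood at 0.22 (adjusted p = 0.224), and 1 more, below the filter, had Cav1KO values of 5.61, 5.53 and 5.41 against WT values of 5.33, 5.39 and 5.20. Without Cav1KO replicate 3, the lowest of its group, the brightest probe set passed at 0.40 (adjusted p = 0.0267). Leaving out the lowest Cav1KO heart must widen a positive difference, so that pass adds no weight. Without Cav1KO replicate 1 the difference was 0.23 (limma adjusted p = 0.248), and without Cav1KO replicate 2 it was 0.31 (adjusted p = 0.223).

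Over the Cav1KO hearts, 4 of the 8 endothelial markers (Pecam1, Cdh5, Tie1 and Cldn5) ran in the order of Pfkp and 4 (Tek, Kdr, Flt1 and Egfl7) did not. Of the 8 macrophage and leukocyte markers, 2 (Ptprc and Laptm5) ran in that order. Over the WT hearts Pfkp was highest in replicate 2 and lowest in replicate 1. Of the endothelial markers only Tek ran in that WT order, and Pecam1 ran in the reverse one. Of the macrophage and leukocyte markers only Cd68 did. How many of all genes share either order was not counted. Pecam1, an adhesion protein of endothelial cells, had 10.06, 9.95 and 9.84 in Cav1KO hearts against 9.28, 9.19 and 9.27 in WT hearts, and rose by 0.71 (SE 0.061, limma adjusted p = 0.000951). Cldn5, a tight junction protein, rose by 0.72, Tek by 0.49 and Tie1 by 0.42. The 8 endothelial markers summed to intensities of 4356 to 5020 in Cav1KO hearts and 3530 to 3668 in WT hearts. The macrophage and leukocyte markers Ptprc, Laptm5, Mpeg1 and C1qa rose as well, by 0.75, 0.54, 0.52 and 0.31, and those 8 markers summed to 4730 to 4989 in Cav1KO hearts and 3643 to 4160 in WT hearts. Among fibroblast markers Col1a1 rose by 0.51 and Col3a1 by 0.65. The 7 fibroblast markers summed to 14260, 13890 and 17000 in Cav1KO hearts and to 12000 to 13550 in WT hearts. Among the Cav1KO hearts all 7 were highest in replicate 3, where Pfkp was lowest. The part of these cell types in the values of Pfkp was not tested.

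Pfkfb2 encodes the heart form of the enzyme that makes fructose 2,6-bisphosphate, the strongest activator of phosphofructokinase. Its brightest probe set had 8.51, 8.37 and 8.32 in Cav1KO hearts against 8.10, 8.44 and 8.16 in WT hearts. WT replicate 2 lay among the Cav1KO hearts, and the difference of 0.17 did not pass (95% interval -0.050 to 0.38, limma adjusted p = 0.359). The 4 probe sets of Pfkfb2 did not run one way, at -0.056 to 0.37.

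From aldolase to pyruvate kinase, 0 of the tested genes passed. Aldoa (aldolase) stood at -0.030, Pgk1 (phosphoglycerate kinase) at -0.028, Pgam2 (the muscle phosphoglycerate mutase) at -0.041 and Pkm (pyruvate kinase) at -0.011, with limma adjusted p of 0.520 to 0.863. Tpi1 (triosephosphate isomerase) stood at -0.080 and Eno3 (the muscle enolase) at -0.078, with adjusted p of 0.285 and 0.234, and Pgam1, the mutase of most tissues, at 0.027. Pgk1, whose promoter is printed above, had 12.09, 12.15 and 12.07 in Cav1KO hearts against 12.17, 12.12 and 12.10 in WT hearts, so that the groups overlapped (95% interval of the difference -0.11 to 0.052). Gapdh, the dehydrogenase of glycolysis, had 13.82, 13.86 and 13.81 in Cav1KO hearts against 13.85, 13.84 and 13.85 in WT hearts at the brightest of its 3 control probe sets. Kept in the fit, a choice made after seeing the data, that probe set had a difference of -0.017 (95% interval -0.073 to 0.038, limma adjusted p = 0.711).

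Bpgm makes 2,3-bisphosphoglycerate, which in red cells loosens oxygen from haemoglobin. It had 9.12, 8.85 and 9.08 in Cav1KO hearts against 8.95, 9.32 and 9.28 in WT hearts. The groups overlapped, with Cav1KO replicate 2 and WT replicate 1 lowest, and the difference of -0.17 did not pass (95% interval -0.40 to 0.072, limma adjusted p = 0.400). The erythroid marker Alas2, which makes heme in red cell precursors and was chosen after its values were seen, had 10.13, 9.62 and 10.06 in Cav1KO hearts against 9.86, 10.32 and 10.35 in WT hearts. The same 2 hearts were lowest for Bpgm and for Alas2, but not for the other tested erythroid marker, Slc4a1, a red cell membrane protein, which was lowest in Cav1KO replicates 1 and 2. Of 7 erythroid markers 4 had a probe set and 2 were tested, with 0 called, and the 4 summed to intensities of 918 to 1244 in Cav1KO hearts and 1070 to 1483 in WT hearts. The part of blood in the Bpgm values was not tested.

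**Figure D3:**
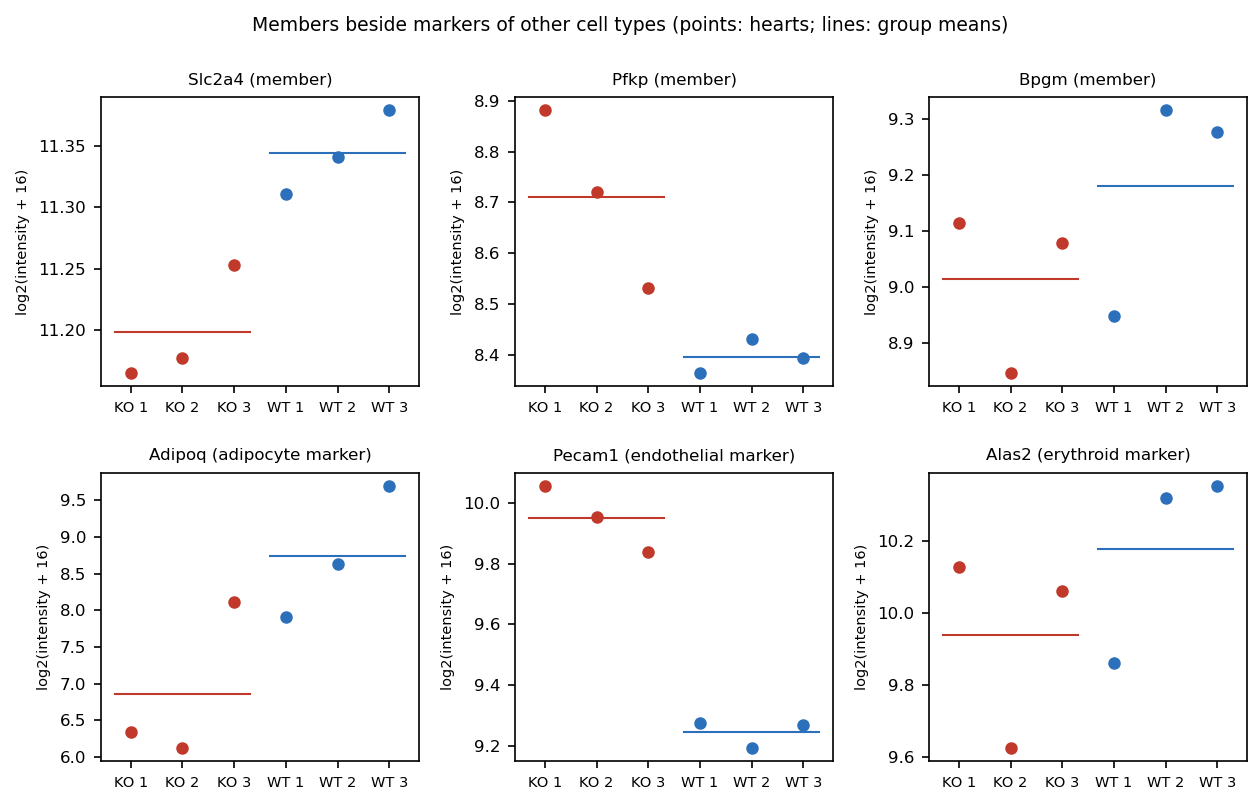
The upper row plots the members Slc2a4, Pfkp and Bpgm and the lower row the markers Adipoq, Pecam1 and Alas2, as log2(intensity + 16) in the 3 Cav1KO hearts (red, left) and the 3 WT hearts (blue, right), with lines at the group means. Cav1KO replicate 1 is highest of its group for both Pfkp and Pecam1, but among the WT hearts replicate 1 is lowest for Pfkp and highest for Pecam1. Cav1KO replicate 2 and WT replicate 1 are lowest for both Bpgm and Alas2, a match that the erythroid marker Slc4a1, not plotted, does not share.

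The lactate step gave the smallest adjusted p. Lactate dehydrogenase is built from the heart subunit, Ldhb, and the muscle subunit, Ldha. Ldhb had 13.01, 13.00 and 12.97 in Cav1KO hearts against 13.10, 13.09 and 13.15 in WT hearts. All Cav1KO hearts lay under all WT hearts by a small step of -0.12 (95% interval -0.18 to -0.054, limma adjusted p = 0.0617). All 4 probe sets of Ldhb had a negative difference, -0.12 to -0.069, and the smallest adjusted p was 0.0504. The 2 with the suffix _x_at, whose probes can also bind other transcripts, had limma adjusted p of 0.0617 and 0.0504. For the other 2 it was 0.141 and 0.266. Ldhb passed with the intensities as deposited (-0.13, adjusted p = 0.0416), with array weights (-0.13, adjusted p = 0.0301) and with the mean of its probe sets (-0.097, adjusted p = 0.0445). Ldha, with the promoter printed above, ran the other way, at 12.25, 12.22 and 12.26 in Cav1KO hearts against 12.17, 12.18 and 12.19 in WT hearts. Its groups did not overlap, and the difference was 0.066 (95% interval 0.00037 to 0.13, limma adjusted p = 0.247). Slc16a1, the lactate carrier MCT1, stood at -0.019 (95% interval -0.13 to 0.088). Slc16a3, the carrier MCT4 of glycolytic muscle, lay below the filter, at 5.15, 5.17 and 5.04 in Cav1KO hearts and 5.4, 5.17 and 5.09 in WT hearts.

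Of the 9 glycogen genes, 0 passed the test, 6 had a negative and 3 a positive difference. Ugp2 makes UDP-glucose, the building block of glycogen. It had 12.19, 12.14 and 11.99 in Cav1KO hearts against 11.92, 11.96 and 11.93 in WT hearts. Every Cav1KO heart lay above every WT heart, and the difference of 0.17 did not pass (95% interval 0.056 to 0.28, limma adjusted p = 0.111). All 5 probe sets of Ugp2 were positive, from 0.063 to 0.17, and without Cav1KO replicate 3 the brightest passed at 0.23 (adjusted p = 0.0182). That heart was the lowest Cav1KO heart for Ugp2, so leaving it out must widen the difference. Over all settings run the difference was 0.12 to 0.23, with limma adjusted p of up to 0.329. Gys1, the glycogen synthase of muscle, had 9.73, 9.73 and 9.59 in Cav1KO hearts against 9.81, 9.76 and 9.83 in WT hearts. These groups did not overlap either, at a difference of -0.12 (95% interval -0.24 to -0.0011, limma adjusted p = 0.246). Gyg, the primer protein glycogenin, stood at 0.022 and Gbe1, the branching enzyme, at -0.086, with adjusted p of 0.75 and 0.45.

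On the breakdown side, Pygm, the muscle phosphorylase, had 12.00, 12.05 and 11.98 in Cav1KO hearts against 12.12, 12.09 and 12.07 in WT hearts. The groups did not overlap and differed by -0.082 (95% interval -0.16 to -0.0076, limma adjusted p = 0.212). Pygb, the brain form that the heart also carries, stood at 0.033 (adjusted p = 0.654). Phosphorylase kinase, which switches phosphorylase on, gave -0.021 for its muscle regulatory subunit Phka1, -0.032 for Phkb and -0.31 for its muscle catalytic subunit Phkg1. Phkg1 had 6.83, 6.92 and 7.22 in Cav1KO hearts against 7.08, 7.34 and 7.46 in WT hearts. The groups overlapped through Cav1KO replicate 3 and WT replicate 1, and this largest negative difference among the tested members did not pass (95% interval -0.59 to -0.024, limma adjusted p = 0.218).

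**Figure D4:**
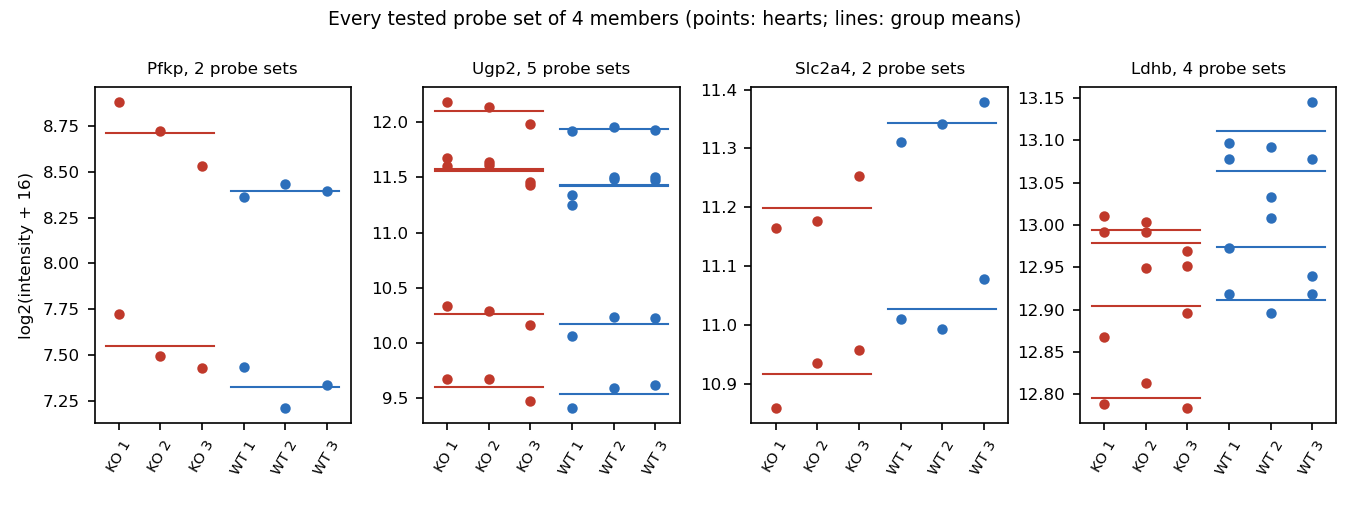
All tested probe sets of Pfkp, Ugp2, Slc2a4 and Ldhb are plotted as log2(intensity + 16), with the 3 Cav1KO hearts in red on the left, the 3 WT hearts in blue on the right and lines at the group means; each panel has its own y axis, which does not start at 0. The group means of Cav1KO hearts lie above those of WT hearts for the 2 probe sets of Pfkp and the 5 of Ugp2, and below them for the 2 of Slc2a4 and the 4 of Ldhb.

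Among the members with more than 1 tested probe set, 12 of 17 had all of them on one side of 0 and 5 did not. Probe sets of a gene read the same RNA and are no replicates. Those of Aldoa, Tpi1 and Ldhb used here have the platform suffix _x_at and those of Bpgm and Gyg _s_at, which mark probes that can also bind other transcripts, so these 5 values are uncertain where a near copy of the gene is transcribed.

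Forms named for muscle or typical of it and forms found in most tissues were then set apart. All 9 muscle forms (Slc2a4, Hk2, Pfkm, Pgam2, Eno3, Gys1, Pygm, Phka1 and Phkg1) had a negative difference, with 0 past the threshold and a median of -0.082. As deposited, with median centring, without Cav1KO replicate 3 and without WT replicate 2, 8 of the 9 were negative. With the mean of all probe sets of a gene it was 8 as well, and Phka1 was the positive one each time. The other 2 tested probe sets of Phka1 were positive, at 0.0011 and 0.14. Among all 11486 genes tested, 6226 had a negative difference. The 6 general forms tested (Slc2a1, Hk1, Pfkl, Pfkp, Pgam1 and Pygb) were split 3 to 3, with a median of 0.0018. Phka2 and Phkg2, the counterparts of Phka1 and Phkg1, are not members and so in neither class. They were negative too, at -0.26 and -0.11. Whether the 2 classes differ was asked pair by pair, from the muscle form minus the general form within each heart, over 6 pairs. Pfkm was paired with both Pfkl and Pfkp. The pair Pfkm and Pfkp, centred on its mean over the 6 hearts, gave -0.38, -0.20 and 0.0031 in Cav1KO hearts against 0.27, 0.14 and 0.17 in WT hearts, a difference of -0.39. Pygm and Pygb gave a difference of -0.11, also with no overlap. Both had p = 0.1 in an exact permutation test, two-sided, which is the smallest that 3 against 3 hearts can give, and adjusted p = 0.3 over the 6 pairs. The other 4 pairs lay between -0.078 and 0.034, with exact permutation p of 0.3 to 0.6.

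The 13 tested members with ACGTG upstream had differences from -0.083 to 0.17 with a median of -0.019, and the 14 without it from -0.31 to 0.31 with a median of -0.079. None of either passed. Egln3, a prolyl hydroxylase that marks hypoxia-inducible factor for destruction and is itself a target of it, did rise, with 9.97, 9.76 and 9.72 in Cav1KO hearts against 9.43, 9.49 and 9.28 in WT hearts (difference 0.42, SE 0.078, limma adjusted p = 0.0272). Hif1a, the oxygen-regulated subunit, stood at 0.21 and did not pass (adjusted p = 0.0552). Of 21 tested regulators of glycolytic genes, 1 rose (Egln3), 0 fell and 20 did not pass, with a median of 0.013.

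Of the 77 tested genes in 6 lists of related genes, 1 rose and 3 fell, where 2.97% of all genes tested were called higher and 1.07% lower. The median difference of the 77 was -0.057. At an unadjusted limma p of 0.05, 31 of the 77 passed, 5 higher and 26 lower. Among all genes tested 22.1% did, 11.1% higher and 11% lower. How that split moves with the scaling was not counted. Each of the 3 called lower came from a different list. Slc2a12, a further glucose carrier (GLUT12), fell to 6.48, 6.35 and 6.35 in Cav1KO hearts, against 6.71, 6.90 and 6.69 in WT hearts (difference -0.37, limma adjusted p = 0.0434). It was the 1 of 6 tested carriers and traffic genes that passed. Slc2a3, the GLUT3 of neurons and leukocytes, stood at 0.39 (limma adjusted p = 0.0520). The probe sets of Slc2a12 and Slc2a3 used here have the suffix _s_at, and their values lay not far above 5.92, the lowest mean tested. Weaker probe sets of both are not in the counts. Fbp2, the muscle enzyme that runs the phosphofructokinase step backwards, fell to 8.95, 8.88 and 9.07 in Cav1KO hearts, against 9.22, 9.23 and 9.25 in WT hearts (difference -0.27, adjusted p = 0.0426), 1 of 9 other isoforms of glycolysis and lactate. Gapdhs, the sperm form of Gapdh, stood at -0.39 there (adjusted p = 0.0825). Pdk2, a kinase that shuts off pyruvate dehydrogenase, fell to 10.87, 10.99 and 10.99 in Cav1KO hearts, against 11.13, 11.13 and 11.25 in WT hearts (difference -0.22, adjusted p = 0.0496), 1 of 13 genes of pyruvate entry into mitochondria. Its partner Dlat, a subunit of pyruvate dehydrogenase, stood at -0.13 (adjusted p = 0.0807). Pdpr, of the same list, stood at -0.16 at its brightest probe set and was not called (limma adjusted p = 0.113). A weaker probe set of Pdpr did pass, at -0.20 (limma adjusted p = 0.0443), and is not in the counts.

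The 4 calls at a brightest probe set sat near the threshold. Over 14 settings, the reported one included, Egln3 passed in 9, Fbp2 in 4, Slc2a12 in 3 and Pdk2 in 3. Slc2a3 and Hif1a, both with a positive difference and not called as reported, passed in 3 and 1 of them. With the intensities as deposited the adjusted p from limma was 0.07 for Slc2a12, 0.168 for Fbp2 and 0.129 for Pdk2, and none of the 4 passed without Cav1KO replicate 1, Cav1KO replicate 2, WT replicate 1 or WT replicate 3. Of 16 other glycogen genes 0 passed, with 5 at an unadjusted p of 0.05, 1 higher and 4 lower, and a median of -0.059. Gaa, the lysosomal glucosidase, stood at -0.15 and Phka2, the liver subunit of phosphorylase kinase, at -0.26 (limma adjusted p of 0.112 and 0.131). Of 12 genes of side branches such as the pentose phosphate path 0 passed, with 4 at an unadjusted p of 0.05, all lower, and a median of -0.078. Gpd1l stood at -0.18 and Pgls at -0.16 (limma adjusted p of 0.106 and 0.184).

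**Figure D5:**
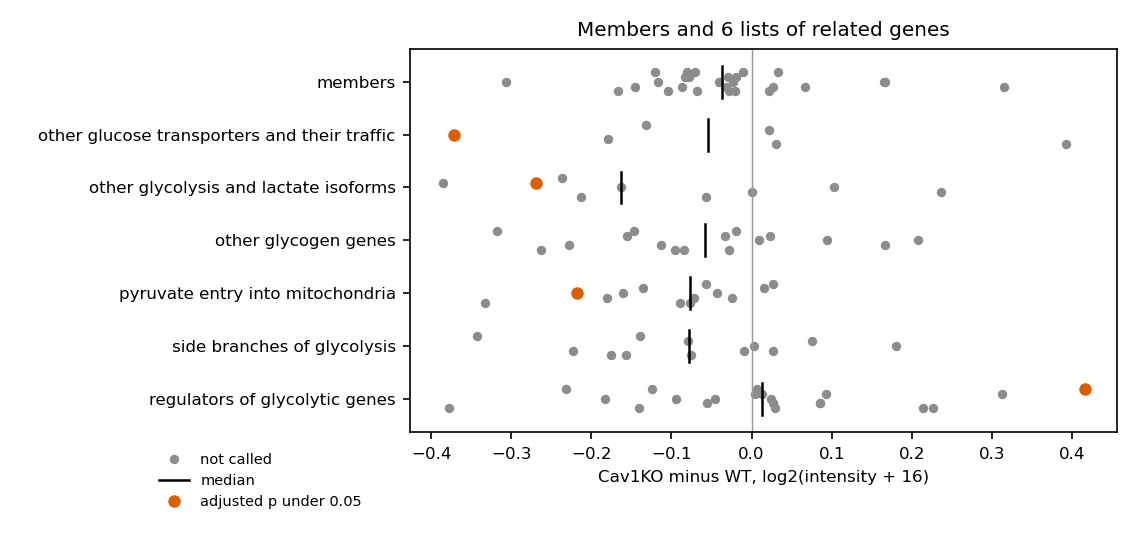
Each point is a tested gene's difference, Cav1KO minus WT on the log2 scale, for the members (top row) and 6 lists of related genes; orange points passed an adjusted p of 0.05 and black bars are medians. Slc2a12, Fbp2 and Pdk2 are orange on the left and Egln3 on the right, and none of the 28 members is orange.

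Cav1 lies on mouse chromosome 6, as do the members Hk2, Tpi1, Gapdh, Bpgm and Ldhb, and 0 of the members lie within 10 Mb of it in the RefSeq table.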

How the data were processed

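RNA of 3 Cav1KO and 3 WT hearts was measured on Affymetrix arrays, with labelled RNA made from 2 ug of total RNA, per the labels' protocols. For every array the authors deposited a linear intensity at each of 45101 probe sets. The submitters' processing notes name GCOS 1.4 with no role. Background correction, summary and scaling were not given in the sources used here. Array medians of the deposited intensity were 43.9 to 45.8, and no arrays were duplicates (at most 2252 identical intensities in a pair). Detection calls were not used here.

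The intensities were quantile normalised, because trimmed means (2% at each end) differed by 8.42% between arrays, then transformed to log2(intensity + 16), a scale that shrinks changes at low levels. Leaving aside 64 control probe sets, the upper 50% by mean over the 6 arrays, 22519 probe sets with a mean log2 value of at least 5.92, were fitted with limma 3.58.1 in R 4.3.3 (lmFit, eBayes with trend, Cav1KO minus WT, no covariate). P-values were Benjamini-Hochberg adjusted over all of them, at a threshold of 0.05, and intervals are at 95%. Gene names came from the platform annotation: 34945 probe sets had 1 symbol, 932 several and 9160 none. Sequences are from RefSeq, GRCm38.p6. The fit was tested on simulated data. With 3 arrays a group, their number limits the precision.

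The members and lists were chosen with earlier results of these data known, so no list was tested as a set. Named are all members, Cav1, the called genes and the 2 with the smallest p of each related list, and up to 4 called markers a list. Adipoq, Alas2 and Pdpr are among the exceptions. Alternatives were the scaling, pseudocount, filter, variance model, array weights, probe set rule and leaving out each heart.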

Additional observations from a re-analysis of the deposited data

How the results depend on the processing

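The count of members past the threshold, 0, became 1 as deposited (Ldhb), 1 with the mean of all probe sets of a gene (Ldhb) and 2 with array weights (Ldhb and Slc2a4). It stayed at 0 with median centring, pseudocount 1, the upper 75% of probe sets, no filter and no trend, and ran from 0 to 2 when each heart was left out, the 2 being Pfkp and Ugp2 without Cav1KO replicate 3. The median difference over the members, -0.037, was -0.016 as deposited and 0.0023 with median centring, where the median of all genes was 0.034 and 0.052. Of the members, 9 changed sign under some setting, none of them called under any and none with a reported difference beyond 0.086 in size, and the other 19 kept their direction under all settings run. The count of calls in related genes, 4, became 1 as deposited (Egln3) and 2 with median centring (Egln3 and Slc2a3, the latter not called as reported). It was 1 with the upper 75% of probe sets, 1 with no filter, 0 with no trend and 8 with array weights. Without a heart it ran from 0 to 4. Over the array, 716 calls became 414 with no trend, 1172 with array weights, and 189 (without Cav1KO replicate 1) to 744 (without WT replicate 2) without a heart, with 227 without Cav1KO replicate 2, 298 without WT replicate 3 and 471 without WT replicate 1. Slc16a3, tested with the upper 75% of probe sets, stood at -0.10 (limma adjusted p = 0.525). No paired analysis was run, because the labels link no Cav1KO heart to a WT heart. The titles of the Cav1KO samples carry no replicate number, and these samples were numbered here in order of deposition. Detection calls were not used here, so low values such as those of Slc16a3 have no bound. The cause of these changes was not tested.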
